A study of Mus musculus with 2 samples.

Results

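*Tcf4*, its relatives among the E protein genes, *Tcf3* and *Tcf12*, and the genes of the Id proteins, *Id1*, *Id2*, *Id3* and *Id4*, were examined in single adult mouse neural stem/progenitor cells (NSPCs). These 7 genes were chosen by their function and because *Tcf4* differed between low and high PLIN2-GFP NSPCs in these same cells, so their difference between these categories is given below as a description, and nothing is read from how many of them passed a threshold in it. All 7 were among the 15046 genes of the count table. The cells came from 1 stable line of subventricular zone NSPCs, made with a retrovirus. In PLIN2-GFP the lipid droplet coat protein perilipin 2 is joined to green fluorescent protein. The cells had been isolated from pooled adult male C57/Bl6 mice, proliferated in culture with EGF and FGF-2, and were sorted singly for the lowest and the highest GFP signal into the wells of 2 plates, without any further treatment. Plate 1 held 95 low and 84 high PLIN2-GFP NSPCs and plate 2 held 72 and 53, 304 cells in all. The plates are 2 samples of the same line and not independent lines. In 0 of the well rows were cells of both categories found, so category and well row cannot be told apart.

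E proteins are basic helix-loop-helix (bHLH) transcription factors that are made in most tissues. They pair with tissue-specific bHLH factors, among them the oligodendrocyte lineage factors OLIG1 and OLIG2, and the pairs bind short DNA sites called E-boxes. Id proteins have the dimerization domain without the DNA-binding one, so they hold E proteins in pairs that cannot bind, and they are induced by bone morphogenetic proteins (BMPs), which keep NSPCs from neuronal differentiation.

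The method, SORT-seq, counts each molecule once by its unique molecular identifier (UMI) from the 3' end of the RNA, so the UMIs of a gene do not scale with the length of its transcript. The cells had between 1170 and 34630 UMIs, and their median was higher in the high PLIN2-GFP NSPCs, with 11709 against 7856 UMIs on plate 1 and 14729 against 11955 on plate 2. The median share of mitochondrial counts was 11.9% against 14.0% on plate 1 and 12.4% against 12.5% on plate 2. The part of depth and of mitochondrial counts in the results was not tested beyond the alternatives given. Levels are given in CPM, the UMIs of a gene in a sum of cells scaled to a common total, and shares of cells also after thinning every cell to 5000 UMIs, which leaves out 45 cells. The NSPC markers *Nes*, *Vim*, *Fabp7* and *Hes1* were detected in 71.1%, 100%, 99.3% and 54.3% of the cells, and *Sox2* in 16.1%. Of the markers of other cell types, the astrocyte gene *Gfap* had 1.5 UMIs in all cells, the neuronal genes *Snap25* and *Syt1* had 3.5 each and the endothelial gene *Pecam1* had 4.5. However, *Map2*, listed as neuronal, was detected in 91.4% and *Aldh1l1*, listed as astrocytic, in 42.1% of the cells.

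*Tcf4*, on chromosome 18 from 69343356 to 69689079 on the plus strand of GRCm38, was the most abundant of the 7 genes. It had 2249 UMIs, with at least 1 UMI in 285 of the 304 cells (93.8%). It ranked 203rd of all genes by its mean. *Tcf12*, on chromosome 9 from 71842688 to 72111871 on the minus strand, encodes the E protein HEB and followed with 813 UMIs, at least 1 of them in 239 cells. *Tcf3*, on chromosome 10 from 80409514 to 80433647 on the minus strand, encodes E12 and E47 by alternative splicing and was scarce, with 65 UMIs in 54 cells. The 3 E protein genes together were thus mostly *Tcf4* transcripts, with *Tcf12* the only other one seen in most cells.

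The Id genes had few UMIs in these cells. *Id3*, on chromosome 4 from 136143497 to 136145755 on the plus strand, had 272 UMIs and at least 1 UMI in 97 cells. The authors' estimate divided some of its UMIs between genes, as 87 cells held a part of a UMI and these parts added to 43.6 UMIs (16.0% of its total), so its level is uncertain. Such parts also occurred for *Tcf4* in 124 cells and for *Tcf12* in 48 cells, and added to 2.94% and 3.02% of their totals. *Id2*, on chromosome 12 from 25093799 to 25097140 on the minus strand, had 179 UMIs and *Id1*, on chromosome 2 from 152736251 to 152737410 on the plus strand, had 93. *Id4*, on chromosome 13 from 48261228 to 48266026 on the plus strand, had 21 UMIs in 19 cells. Over the 4 sums of plate and category, neither *Tcf4* and *Tcf12* nor *Tcf12* and *Id3* overlapped, whereas the ranges of *Id3* and *Id2*, of *Id2* and *Id1* and of *Id1* and *Tcf3* did.

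The partner genes *Olig1* and *Olig2* had many more UMIs than the Id genes. *Olig1* had 7962 UMIs and was detected in all 304 cells, and *Olig2* had 3883 UMIs in 300 cells. *Hes1* and *Hes5*, which encode repressors that act downstream of Notch and oppose proneural genes, had 512 and 47 UMIs. *Hes6*, of the same family, encodes a protein that counters HES1 and had 666.

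*Tcf4* had lower levels in the high than in the low PLIN2-GFP NSPCs of both plates, with 632 against 738 CPM on plate 1 and 557 against 733 CPM on plate 2. The sums behind these values hold 650, 562, 433 and 604 counts. Levels of the low cells were close to each other on the 2 plates and the levels of the high cells were both below them. The difference was -0.22 on the log2 scale on plate 1 and -0.40 on plate 2, and the fit over both plates gave -0.31 (SE 0.09). *Tcf12* had the same order, with 195 against 252 CPM on plate 1 and 203 against 318 CPM on plate 2. Its fitted difference was -0.51 (SE 0.13), and its categories did not overlap either. *Tcf3* had 17.5 and 17.1 CPM in high and low cells of plate 1 and 20.6 and 21.8 CPM on plate 2. Its difference of -0.03 (SE 0.38) was within its error, and its sums held only 13 to 18 counts.

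*Id2* differed most of the 6 members with enough counts for the fit. It had 31.1 CPM in high and 56.5 CPM in low cells of plate 1, and 33.4 and 94.6 CPM on plate 2. The levels of the high cells were alike on both plates and the spread lay among the low ones. The fitted difference was -1.19 (SE 0.25). *Id1* had 21.4 against 26.3 CPM on plate 1 and 33.4 against 30.3 CPM on plate 2, so the order changed between the plates and the fitted difference was -0.06 (SE 0.32). *Id3* also had opposite orders, with 124 CPM in high and 72.2 CPM in low cells of plate 1 but 51.4 and 60.6 CPM on plate 2. Its fitted difference of 0.38 (SE 0.21) rests on the high sum of plate 1, and it was -0.37 without that sum. *Id4* did not pass the filter on low counts, with 6 and 1 counts in high and low cells of plate 1 and 9 and 5 on plate 2. By edgeR's quasi-likelihood test 3 of the 6 fitted members, *Tcf4*, *Tcf12* and *Id2*, lay below an adjusted p of 0.1 in the lower direction, beside 1.25% of all genes tested (0.884% in the higher direction). This contrast chose the genes, and so nothing is read from that count.

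**Figure D1:**
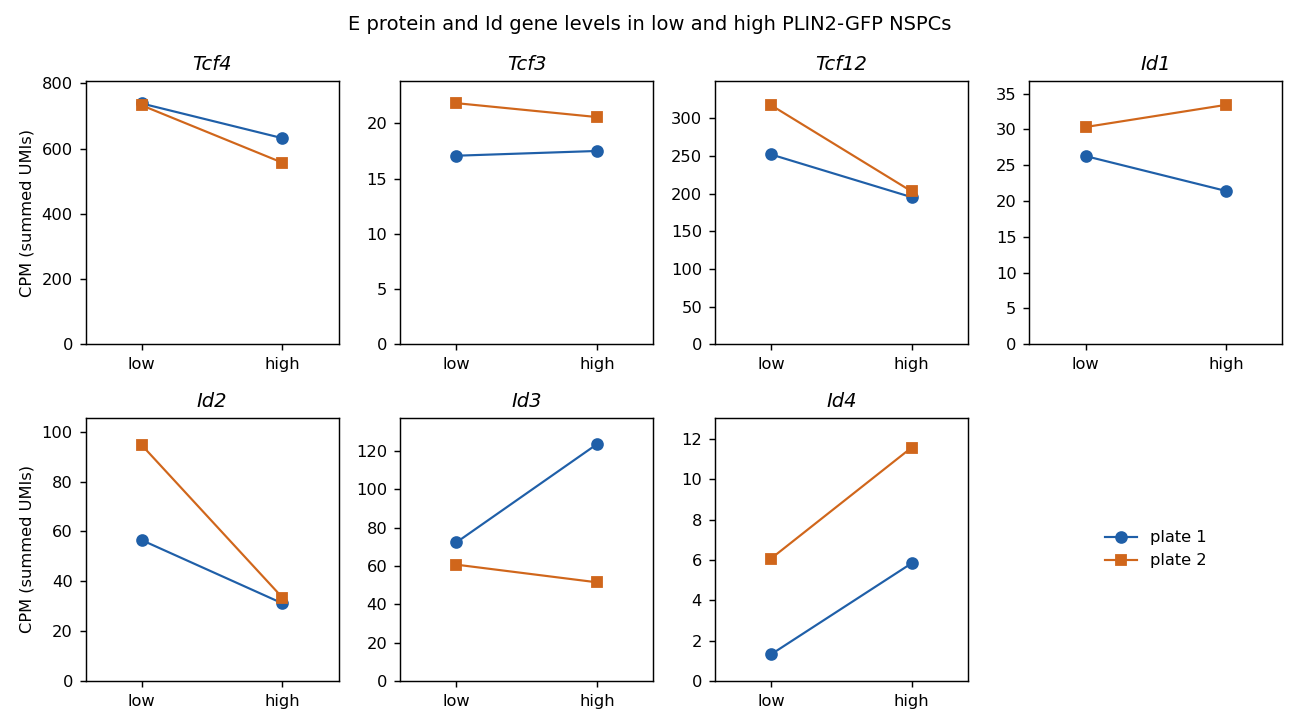
Levels of the 7 genes, in CPM of summed UMIs scaled by TMM factors, in low and high PLIN2-GFP NSPCs. Each point is 1 sum over cells, and lines join the 2 categories of a plate. *Tcf4*, *Tcf12* and *Id2* were lower in high cells on both plates, whereas *Id1* and *Id3* had opposite orders on the 2 plates.

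The shares of cells with *Tcf4* had overlapping intervals in the categories. At least 1 UMI was found in 91.7% of high (95% exact binomial interval 83.6 to 96.6) and 93.7% of low cells (86.8 to 97.6) of plate 1, and in 92.5% (81.8 to 97.9) and 97.2% (90.3 to 99.7) on plate 2. With cells thinned to 5000 UMIs the mean was 3.12 UMIs per high and 3.49 per low cell on plate 1, and 2.52 and 3.34 on plate 2. *Tcf12* was detected in 78.6% of high and 71.6% of low cells of plate 1, the reverse of its levels, and in 81.1% and 86.1% on plate 2. High cells had more UMIs, and thinned cells gave 56.2% for high and 51.4% for low cells of plate 1, with 58.0% for high and 65.6% for low cells of plate 2. The order of these shares was the same with thinning, and their intervals overlapped. Thinned *Tcf12* means were 0.918 UMIs per high and 1.18 per low cell on plate 1, and 0.940 and 1.36 on plate 2.

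Without thinning, the shares of cells with *Id2* had the order of its levels on plate 2 only. *Id2* was detected in 28.6% of high (19.2 to 39.5) and 22.1% of low cells (14.2 to 31.8) of plate 1, and in 34.0% (21.5 to 48.3) and 37.5% (26.4 to 49.7) of plate 2. The intervals overlap on both plates. Cells with many *Id2* UMIs were few, as 4 of the 95 low cells of plate 1 had at least 4 UMIs against 1 of its 84 high cells. On plate 2 there were 7 such cells among the 72 low ones and 0 among the 53 high ones. The cut at 4 UMIs was not tested, and the counts are a description. No cell had 4 or more UMIs of *Id4* or *Tcf3*. A single low cell of plate 2, in G2/M phase, held 19 of the 78 *Id2* UMIs of its group, and without it the fitted difference was -0.99 (SE 0.26). The 5 cells with the most *Id2* held 23.5% of its UMIs, against 5.68% for *Tcf4* and 9.04% for *Tcf12*. In thinned cells the variance of *Id2* was 2.69 times its mean, against 1.92 for *Tcf12*, 1.56 for *Tcf4*, 1.41 for *Id1*, 1.33 for *Id3* and 1.10 for *Tcf3*. All these ratios were above the value of 1 that counting alone gives, but they have no interval and were not tested, and that of *Tcf3* was close to 1. They are over the cells of all groups together, so differences between plates and categories enter them.

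**Figure D2:**
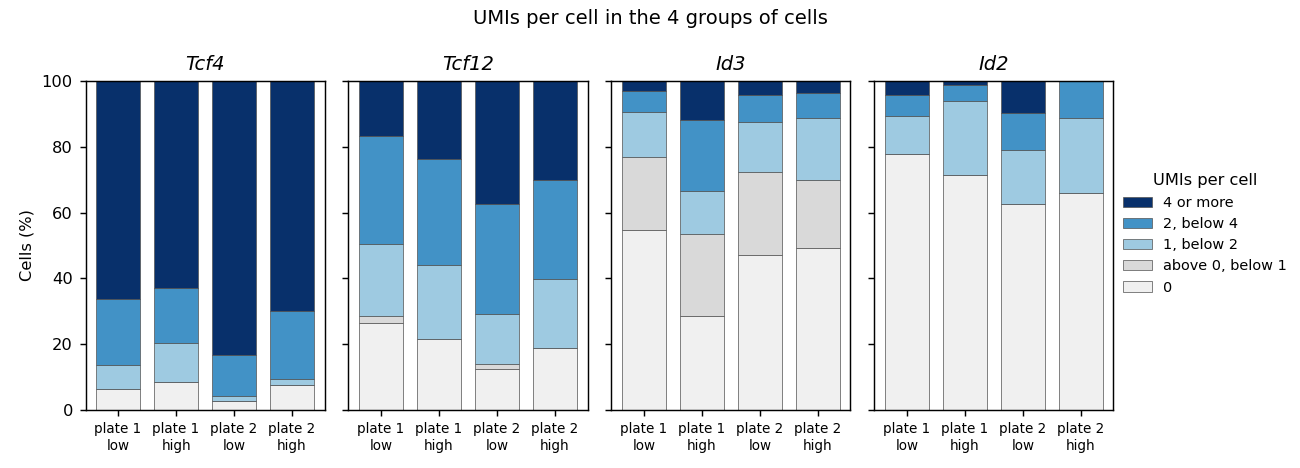
Share of cells, in percent, by the number of UMIs of *Tcf4*, *Tcf12*, *Id3* and *Id2* in each group of plate and category. Cells with 4 or more *Id2* UMIs were 4 and 7 in the low groups and 1 and 0 in the high groups, and the counts above 0 but below 1 are UMIs that the authors' estimate divided between genes.

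Neither *Olig1* nor *Olig2* passed the test between the categories. *Olig1* differed by -0.10 (SE 0.07) and *Olig2* by -0.02 (SE 0.08) on the log2 scale. None of the 4 tested Hes and Hey genes was called by edgeR at an adjusted p under 0.1. At an unadjusted p under 0.05 this list had 0 genes, and DESeq2 gave none of the 4 an adjusted p. *Hes1* differed by 0.27 (SE 0.16, adjusted p = 0.552) and *Hes5* by 0.03 (SE 0.44, adjusted p = 0.994). Of 25 genes of the BMP pathway that leads to Id genes, 12 were tested and 0 called, with 1, the receptor gene *Acvr2b* (-1.32, SE 0.50, adjusted p = 0.209), at an unadjusted p under 0.05. DESeq2 gave none of these 12 an adjusted p. The median log2 difference of the lists was 0.15 for the Hes and Hey genes and -0.02 for the BMP pathway, beside 0.00 over all 8372 genes tested.

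Some genes of the neurogenic programme that proneural factors activate were lower in high PLIN2-GFP NSPCs. Of 20 genes of that programme 12 were tested, 0 were called higher and 5 lower, beside 0.884% and 1.25% of all genes tested. The median difference of the list was -0.42 against 0.00 over all genes. The list was chosen with earlier results of these data known, so this count and this median are a description. *Sox4*, a transcription factor of neuronal commitment, had 504 against 1003 CPM on plate 1 and 486 against 703 CPM on plate 2. It differed by -0.78 (SE 0.09, adjusted p = 3.72e-13). The Notch ligand gene *Dll1* fell by 1.33 (SE 0.25, adjusted p = 4.08e-05) and *Dll3*, which encodes a related protein that dampens Notch signalling within the cell, fell by 1.86 (SE 0.49, adjusted p = 0.0153) on 1 to 20 counts per sum. *Gadd45g*, a stress and differentiation gene, fell by 0.61 (SE 0.16, adjusted p = 0.0171), and *Btg2*, an antiproliferative gene of neurogenic divisions, fell by 0.55 (SE 0.17, adjusted p = 0.0575). The other neurogenic genes tested did not pass, among them *Sox11* with -0.02 (SE 0.12). In the same contrast 1 of 5 NSPC markers was called, *Vim*, which fell by 0.22 (SE 0.06, adjusted p = 0.04), and *Map2*, the only neuron marker tested, had -0.29 (SE 0.10, adjusted p = 0.171). Their part in the neurogenic values was not tested. DESeq2 called *Sox4* and gave the other 4 no adjusted p, none was called without the plate block, and 0 to 2 were called when 1 of the 4 sums was left out. The values of *Dll3* then ran from -3.87 without the high sum of plate 1 to -1.09 without the high sum of plate 2, and that of *Sox4* was -0.50 without the low sum of plate 1. In G1 cells alone *Gadd45g* had 0.44, with an adjusted p of 0.647. The cells of a plate share a library and the fit has 1 residual degree of freedom. The test moderates the variance of each gene with that of all genes tested. These p-values are thus not a measure of the spread of a gene between the 2 plates. *Sox4*, for example, differed by -0.99 on plate 1 and by -0.53 on plate 2.

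**Figure D3:**
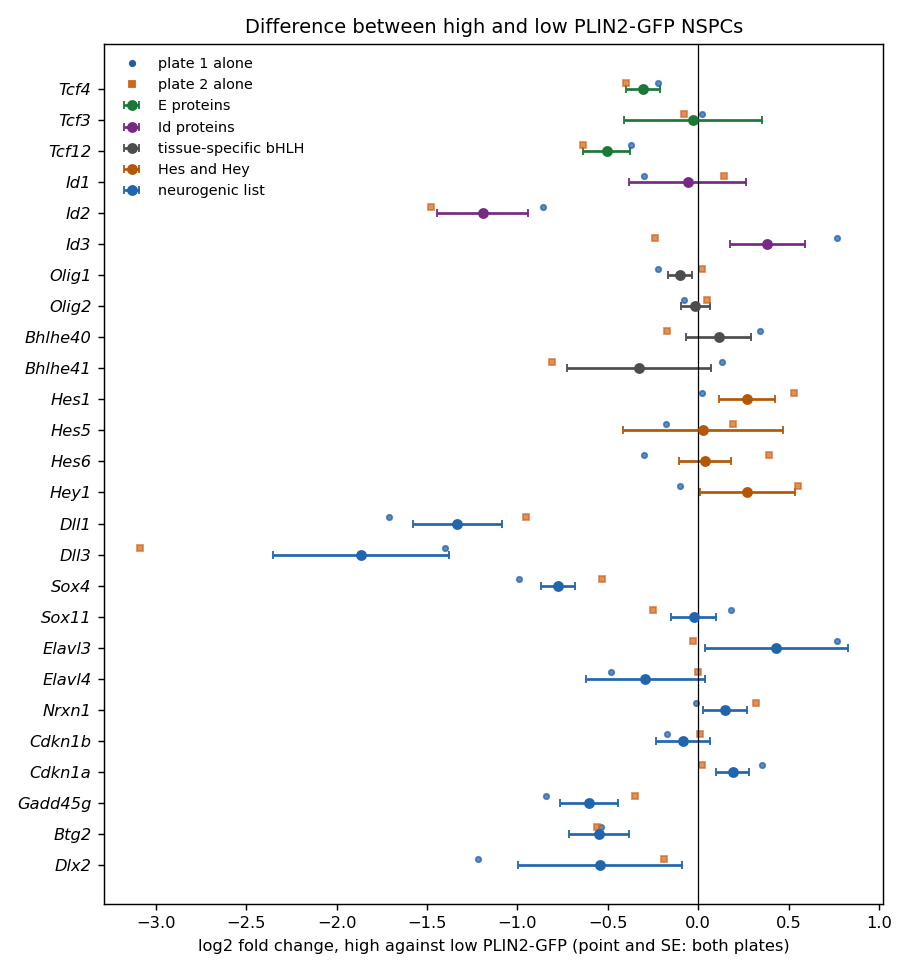
Log2 fold change of high against low PLIN2-GFP NSPCs for 6 members and for tested bHLH, Hes and Hey, and neurogenic genes. Large points with bars are the fit over both plates with its SE, and small circles and squares are plates 1 and 2 alone. *Dll1*, *Dll3*, *Sox4*, *Gadd45g* and *Btg2* lie to the left of 0 on both plates, like *Tcf4*, *Tcf12* and *Id2*, whereas *Olig1* and *Olig2* lie near 0.

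The E-box CAGCTG, a form bound by pairs that hold E proteins, is shown where it occurs in the promoters of these genes. The windows are those of RefSeq on GRCm38.p6 and run from 250 bases before to 50 bases after each transcription start. CAGCTG is its own reverse complement, so 1 search covers both strands. Of all 32851 windows 16.3% hold it, and 72.3% hold CANNTG, the general E-box, of which it is one form. Of the members other than *Tcf4*, which was left out, 5 had a window and 2 of them, *Id2* and *Tcf12*, held it. Of the 5 neurogenic genes called lower 4 held it, in at least 1 window where a gene has several, and of the 20 other pathway genes tested and not called 6 did (30%). Over all genes tested the share was 16.5%. It was 26.2% of the 61 genes called lower with a window and 8.77% of the 57 called higher. The 61 include *Id2*, *Tcf12* and the 5 neurogenic genes, which were chosen with this contrast known. Their share is thus counted again in the 26.2%, and the difference between the shares was not tested. *Btg2*, *Tcf3*, *Id3* and *Id4* did not hold these letters. The sites are given with up to 12 bases on each side, 5' to 3' on the strand of the gene, with the E-box in capitals.
Id2: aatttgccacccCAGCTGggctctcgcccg
Tcf12: agatgctgccCAGCTGcgtccccgtcgc
Dll1: tgcattaccataCAGCTGagcgcacaaaga
Dll3: tccggcatccagCAGCTGcgactcctgaga
Gadd45g: gcagcctcccgcCAGCTGgcggcggcgcgc
Sox4: cagcagaaatctCAGCTGtacttctagccc

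The starts meant here are those of RefSeq. Positions are those of the whole stretches shown, with their flanking bases, and distances are those of the first base of the E-box. The site of *Id2* is at chr12:25096271-25096300, 196 bases before the start, and that of *Tcf12* at chr9:72112042-72112069, 240 bases before 1 of its 3 starts. In GENCODE, where *Id2* runs from 25093799 to 25097140, the *Id2* site lies within the gene. *Dll1* has it at chr17:15377047-15377076, 132 bases before 1 of 2 starts, and *Dll3* at chr7:28301775-28301804, 7 bases before. *Gadd45g* has it at chr13:51846608-51846637, 55 bases before, and *Sox4* at chr13:28953893-28953922, 211 bases before the start. Apart from *Gadd45g*, which is on the plus strand, these genes are on the minus strand. The flanking bases differ between the 6 sites. The match is of letters only, and binding was not measured.

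The cell cycle phase of each cell was called by the authors from the expression of phase genes in the same cells, and p-values between phases are too small to that extent. Phases were not used to choose the genes. None of the 6 tested members was called between any pair of phases by edgeR at an adjusted p under 0.1, beside 9.36% of all genes called higher and 7.38% called lower in G2/M than in G1, 7.62% and 5.14% in S against G1, and 2.86% and 2.14% in G2/M against S. At an unadjusted p under 0.05 the count of members was 0, 1 and 0, and DESeq2 called 0 in each, without an adjusted p for *Tcf3* in G2/M against S.

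*Tcf4* had 721, 648 and 671 CPM in G1, S and G2/M cells of plate 1 and 703, 589 and 683 CPM on plate 2. The level of S cells was the lowest on both plates, yet S against G1 gave -0.21 (SE 0.10, adjusted p = 0.219). *Tcf12* had 211, 213 and 244 CPM on plate 1 and 273, 233 and 291 CPM on plate 2, with G2/M the highest on both, and G2/M against S gave 0.26 (SE 0.15, adjusted p = 0.455). *Tcf3* had 12.4, 28.5 and 15.3 CPM on plate 1 and 20.3, 27.5 and 15.8 CPM on plate 2. S cells had the highest level on both plates, from 13 and 16 counts, and S against G1 gave 0.80 (SE 0.45, adjusted p = 0.301). The large SE reflects the 8 to 16 *Tcf3* counts per sum.

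Among the Id genes, *Id1* had 19.3, 21.96 and 30.7 CPM in G1, S and G2/M cells of plate 1 and 24.3, 34.3 and 37.4 CPM on plate 2. G1 was the lowest and G2/M the highest phase on both plates, and G2/M against G1 gave 0.64 (SE 0.38, adjusted p = 0.322). *Id2* had 49.5, 52.7 and 25.6 CPM on plate 1 and 68.9, 41.2 and 90.6 CPM on plate 2, so G2/M was the lowest phase on one plate and the highest on the other. The cell with 19 *Id2* UMIs is in the G2/M sum of plate 2, and without it G2/M against S was -0.23 in place of 0.29. With thinned cells *Id2* was called lower in S than in G1 (-1.51, adjusted p = 0.0665) and higher in G2/M than in S (1.67, adjusted p = 0.0713), the only calls of a member in these alternatives. *Id3* had 97.7, 114 and 101 CPM on plate 1 and 62.8, 63.5 and 43.3 CPM on plate 2. All 3 phases were higher on plate 1, and the ranges of the 2 plates did not overlap.

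**Figure D4:**
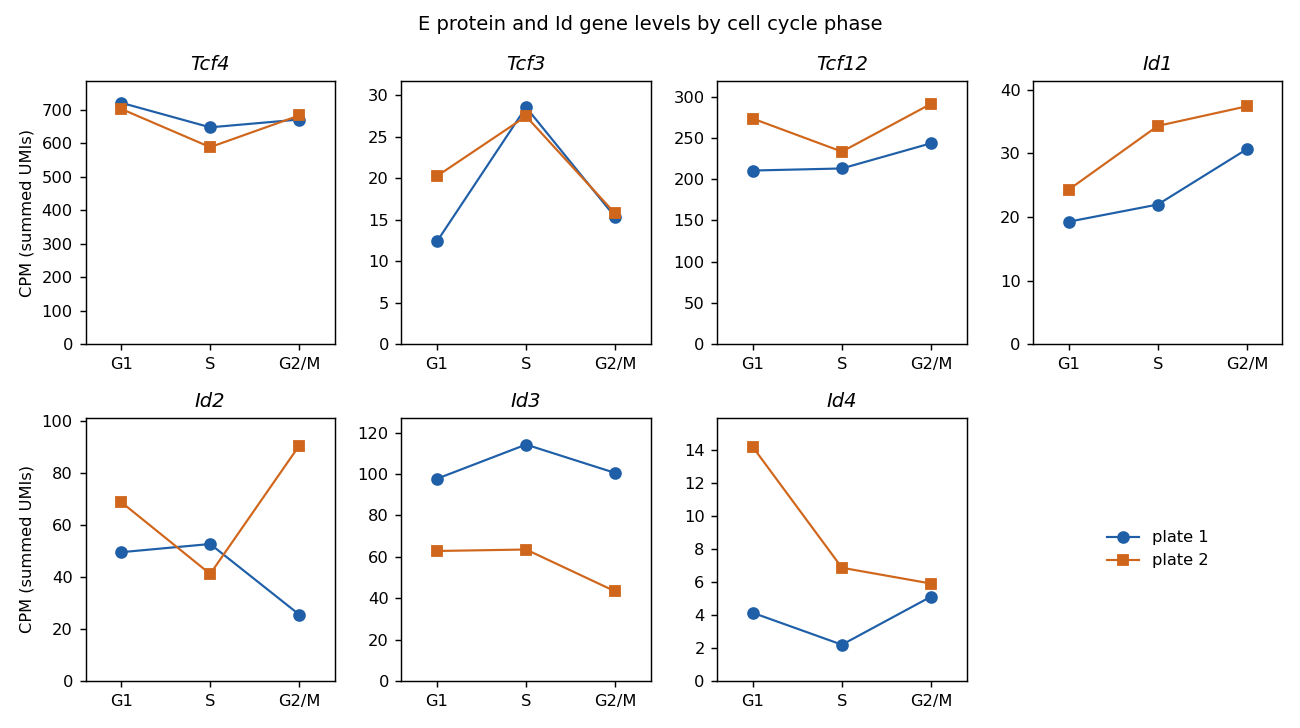
Levels of the 7 genes, in CPM of summed UMIs scaled by TMM factors, by cell cycle phase. Each point is 1 sum over the cells of a plate and phase. No member passed the test. *Tcf4* is lowest in S on both plates, *Tcf3* is highest in S on both plates, and *Id2* in G2/M lies at 25.6 CPM on plate 1 and 90.6 CPM on plate 2.

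Both *Olig1* and *Olig2* changed between phases. In G2/M against G1 cells *Olig1* fell by 0.79 (SE 0.07, adjusted p = 2.14e-10), *Olig2* fell by 0.54 (SE 0.09, adjusted p = 2.72e-05) and *Bhlhe40*, a bHLH repressor of stress and circadian responses, fell by 0.71 (SE 0.21, adjusted p = 0.0233). *Hes6* and *Bhlhe40* were not called without some of the sums, with adjusted p up to 0.258 and 0.245. *Olig1* was also lower in S than in G1, by -0.32, and *Olig2* by -0.41. These values were not called by DESeq2 (adjusted p = 0.105 and 0.108) or without the plate block (0.198 and 0.163). That of *Olig1* was not called with thinned cells (adjusted p = 0.136) either, and was -0.11 (adjusted p = 0.622) in low cells alone. *Hes6*, which counters HES1, fell by 0.67 (SE 0.16, adjusted p = 0.00383) in G2/M against G1, the only one of 4 tested Hes and Hey genes called. Of 11 tested BMP pathway genes, the receptor genes *Bmpr1b* and *Bmpr2* fell by 1.02 (SE 0.31) and 0.52 (SE 0.16) in G2/M against G1, and none rose. Of 10 tested neurogenic genes 2 rose and 2 fell in G2/M against G1. *Sox4* was lower in both S (-0.63, SE 0.11, adjusted p = 0.000143) and G2/M (-0.48, SE 0.10, adjusted p = 0.00159) than in G1, and *Sox11* was higher in both, by 0.42 and 0.53. DESeq2 called *Olig1* and *Olig2* in G2/M against G1, but not *Bhlhe40* or *Hes6*. In that contrast it called 0 of the BMP pathway genes and 1 of the 4 neurogenic genes that edgeR called. Without the plate block 0 genes of either list were called there. For S against G1, DESeq2 called 1 of 4 such neurogenic genes, and 2 were called without the block. Whether a member's change differed from a partner's change was not tested.

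The difference between high and low cells was then taken within each phase. *Tcf4* was lower in high cells in G1, S and G2/M, with fitted log2 differences of -0.31 (SE 0.13), -0.26 (SE 0.16) and -0.33 (SE 0.14). The size differed between the plates. In CPM without TMM factors, its level in G1 was 675 in high and 689 in low cells of plate 1, and 538 and 761 on plate 2. In S it was 586 and 721 on plate 1 and 565 and 615 on plate 2. In G2/M it was 626 and 707 on plate 1 and 564 and 733 on plate 2. *Tcf12* had -0.69 (SE 0.19) in G1 and -0.86 (SE 0.23) in S but -0.09 (SE 0.22) in G2/M cells. In CPM without TMM factors, G2/M cells had 238 in high and 237 in low cells of plate 1 and 273 and 287 on plate 2, whereas S cells had 167 and 273 on plate 1 and 168 and 307 on plate 2. The categories were close in G2/M and apart in S on both plates. The dependence of the difference on phase was tested over 12 sums for all genes, a test added after the values were seen. The adjusted p was 0.828 for *Tcf12* and 0.999 for *Tcf4*, and none of the 5 members tested was called. At an unadjusted p under 0.05 the count was 1, *Tcf12*, and DESeq2 called 0.

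Only 4 of the 6190 genes tested (0.0646%) were called for such a dependence, and 2 of them were on the lists, *Gadd45g* and *Hes1*. The others were *Mt1*, which encodes a metallothionein, and the protocadherin gene *Pcdhgb4*. *Hes1* had 203 CPM in high and 48.3 in low S cells of plate 1 and 218 and 76.0 on plate 2. Its low S sums hold only 9 UMIs on plate 1 and 21 on plate 2. In G1 cells it had 180 and 170 on plate 1 and 128 and 159 on plate 2, and in G2/M cells 96.0 and 178 on plate 1 and 173 and 117 on plate 2. Thus high cells were far above low cells on both plates in S alone, and the difference in S exceeded that in G1 by 1.79 on the log2 scale (adjusted p = 0.0496). *Gadd45g* had 84.8 CPM in high and 218 in low G2/M cells of plate 1 and 63.3 and 323 on plate 2. Its G2/M sums of plate 2 hold 15 UMIs in high and 94 in low cells, 23 of the latter in 1 cell. Its difference in G2/M less that in G1 was -2.36 on the log2 scale (adjusted p = 0.0137), and in G1 cells it had 161 and 179 on plate 1 and 209 and 58.6 on plate 2. Neither gene was called by DESeq2 (adjusted p = 1 for both), without the plate block or with thinned cells, where the adjusted p was 0.906 for *Hes1* and 0.669 for *Gadd45g*.

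**Figure D5:**
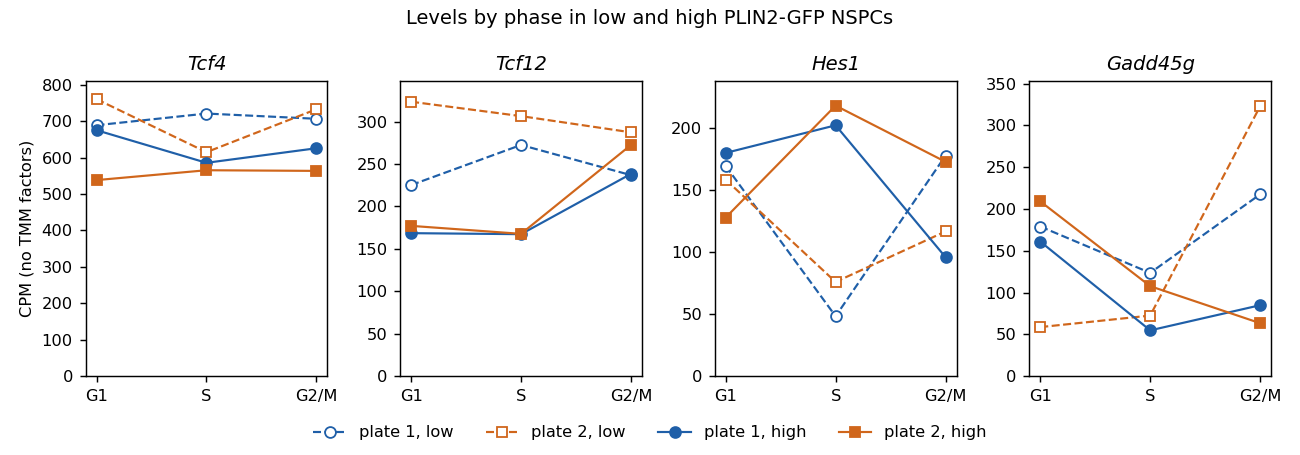
Levels of *Tcf4*, *Tcf12*, *Hes1* and *Gadd45g*, in CPM without TMM factors, by phase. Each line is 1 plate and category, with open symbols and dashed lines for low and filled symbols and solid lines for high PLIN2-GFP NSPCs. *Tcf12* of high and low cells meets in G2/M, *Hes1* separates the categories in S, and *Gadd45g* separates them in G2/M.

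The authors grouped the cells into 2 clusters from their expression, so the levels of clusters are a description. Cluster 0 had 92 cells on plate 1 and 63 on plate 2, and cluster 1 had 87 and 62. *Tcf12* had 168 CPM, without TMM factors, in cluster 0 and 263 in cluster 1 on plate 1, and 202 and 318 on plate 2. *Id2* had 26.9 and 55.5 on plate 1 and 26.5 and 105 on plate 2, and *Tcf4* had 632 and 694 on plate 1 and 576 and 700 on plate 2. These 3 genes, which were lower in high PLIN2-GFP NSPCs, were higher in cluster 1 on both plates. The categories were not separated within the clusters, so this is not an observation apart from the difference between categories. *Id1* was lower in cluster 1 on both plates, with 24.7 and 21.1 on plate 1 and 34.6 and 27.3 on plate 2, and so was *Hes1*, with 192 and 105 on plate 1 and 182 and 106 on plate 2. *Id3* had 100.0 and 98.8 on plate 1 and 66.3 and 41.8 on plate 2.

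Over cells, the 7 genes were only weakly related to each other. Pearson's r was computed on log2(UMIs per 10000 + 1) within the 4 groups of plate and category, whose cells share a library, and averaged. The 21 pairs of members had mean values from -0.09 to 0.10 with a median of 0.01, beside a median of 0.04 and a central range (0.05 to 0.95 quantile) from -0.09 to 0.17 over all pairs of genes with at least 1 UMI per cell on average. Among the members only *Tcf4* and *Tcf12* reach that mean, so this range is of more abundant genes than most member pairs. In these sparse counts such values are no finding, and only 2 pairs had 1 sign in all 4 groups. *Tcf4* and *Tcf12* had r of 0.05 and 0.09 in low and high cells of plate 1 and -0.19 and 0.33 on plate 2, a mean of 0.07.

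Of the 2097 genes with at least 1 UMI per cell on average, only *Tcf4* and *Tcf12* were members, and genes most like them were named by the mean r over the 4 groups among those with 1 sign in all 4. For *Tcf4* these included *Ccdc88a*, which encodes an actin-binding protein (0.35), and *mt-Rnr1*, a mitochondrial ribosomal RNA (0.35). The most opposite were the mitochondrial genes *mt-Cytb* (-0.38) and *mt-Nd2* (-0.33) and the predicted gene *Gm10925* (-0.32). For *Tcf12* the most alike were *Srp9* (0.24), *Pik3r1* (0.22) and *Xpo6* (0.21) and the most opposite *Rab3b* (-0.24), *Igfbp2* (-0.23) and *Uqcrh* (-0.23). Thinning weakened these, to 0.23 for *Ccdc88a* and -0.19 for *mt-Cytb* with *Tcf4*, and to 0.08 for *Srp9* and 0.17 for *Pik3r1* with *Tcf12*. *Tcf4* and *Sox4* had r of 0.11, 0.36, 0.25 and 0.49 in low and high cells of plate 1 and of plate 2, a mean of 0.30 that was 0.09 with thinned cells. *Tcf12* and *Hes1* were opposite in all 4 groups, with r of -0.28, -0.05, -0.30 and -0.22, a mean of -0.21 that was -0.08 with thinned cells. Cells share depth as well as library, and thinning also leaves out the shallow cells.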

How the data were processed

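SORT-seq libraries of 304 single NSPCs on 2 plates were analysed. The authors assigned reads with Salmon and alevin to GRCm38 and deposited estimated counts (expected counts of UMIs) per gene and cell, without normalization. Versions and the annotation release are not given in the sources used here. The authors also deposited per cell the total count as a signal, the count of genes, the mitochondrial percent, scores of doublets and cell cycle, and the plate, category, phase and cluster. The study kept cells under 20% mitochondrial counts and without doublets, although 11 of the deposited cells are above it. The 304 headerless columns were joined to cells by equal total and number of genes (tolerance 0.01), and 0 columns were unused. On both plates 59 well barcodes occur.

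UMIs were summed per plate and category (4 sums, 778022 to 1029023 UMIs) or per plate and phase (6 sums, 460368 to 767400 UMIs), rounded, filtered with filterByExpr, scaled by TMM and compared in edgeR 4.0.16 (R 4.3.3) by the quasi-likelihood test with the plate as a block. SEs were obtained from the fold change and the F statistic. P-values were adjusted by Benjamini-Hochberg over the 8372 genes tested between categories and the 7667 tested between phases, and called under 0.1. The plate number pairs the sums, as both categories come from the same plate, and same-numbered deviations had a correlation of 0.298 over all genes. Levels by cluster and by phase within category are in CPM without TMM factors. Alternatives were no block, DESeq2 1.42.0, RLE or no scaling factors, other filters, thinned cells, 12 sums, single phases or categories, mitochondrial limits and each sum left out. Shares have 95% exact binomial intervals, for counting error only. Promoters are from RefSeq and positions from GENCODE M21, whose build is that of the files. Python 3.11.15, pandas 2.3.3, numpy 2.4.6 and scipy 1.17.1 were used.

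The genes named are the 7 members, *Olig2*, *Hes1* and *Hes5*, the list genes called between categories, and the 3 genes most and least like each member with at least 1 UMI per cell, apart from genes that are not reported here. The test of dependence on phase, the limit of 20% and the omission of 1 cell were added after the values were seen, and other named genes were chosen then. Members and lists were chosen with earlier results of these data known.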

Additional observations from a re-analysis of the deposited data

Results flagged for a closer look

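The difference of *Hes1* between high and low PLIN2-GFP NSPCs depended on the phase of the cells by an interaction test over 12 sums in edgeR (adjusted p = 0.0496), added after the values were seen. It was 1.79 higher on the log2 scale in S than in G1 cells, and high cells were above low cells in S on both plates. Leaving out each of the 12 sums gave values from 1.53 to 2.20. The adjusted p was over 0.1 without the low S sum of plate 1 (0.241) or plate 2 (0.113), the high S sum of plate 2 (0.177), and the high (0.146) or low (0.129) G2/M sum of plate 1.

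*Gadd45g* had a difference that depended on the phase in the same test (adjusted p = 0.0137), with -2.36 on the log2 scale in G2/M less that in G1 cells. Leaving out each sum gave values from -3.56, without the low G1 sum of plate 1, to -1.71, without that of plate 2. The adjusted p was over 0.1 without the high G2/M sum of plate 1 (0.146) or plate 2 (0.152) and without the low G2/M sum of plate 2 (0.289). The 12 sums hold 15 to 49 cells each.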

How the results depend on the processing

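By the count of members called between phases, 0 in each of the 3 contrasts, every alternative gave 0 except thinned cells, where S against G1 and G2/M against S each had 1 (*Id2*). Leaving out each sum gave 0 to 0. The 5 pathway genes called between high and low cells were 0 with no replicate block, 1 in DESeq2 (which gave the other 4 no adjusted p), 2 with thinned cells, 2 with 12 sums, 0 to 2 when 1 sum was left out, 1, 2 and 3 in G1, S and G2/M cells alone, and 0 in cells under 10% mitochondrial counts. The 3 members past the threshold, from which nothing is read, were 0 with no replicate block, 0 in DESeq2 (with an adjusted p for *Tcf4* alone), 1 with thinned cells, 0 to 1 when 1 sum was left out, 0, 1 and 0 in G1, S and G2/M cells, and 0 under 10%. That limit leaves 4 low and 10 high cells on plate 1 and 6 and 13 on plate 2. There the value of *Tcf4* was 0.088 and that of *Btg2* was 0.48, both of the opposite sign, and *Gadd45g* was 0.44 in G1 cells alone. *Hes1* in G2/M against S was 1.17 in low cells alone, against -0.10. The cause was not tested. Fits that omit a category sum have no block. Over all genes, the calls between categories were 74 higher and 105 lower, against 0 and 1 without the block and 4 and 8 in DESeq2. With thinned cells the *Tcf4* level, without TMM factors, was 697 CPM against 701 in low and 625 against 632 in high cells of plate 1, and 669 against 704 and 504 against 557 on plate 2. Its correlation with *Tcf12* was 0.12 against 0.07. The precision is limited by 2 plates and, for *Tcf3*, *Id1* and *Id4*, by 21 to 93 UMIs.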
